A study of Mus musculus with 4 samples.

Results

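Genes of cholesterol and fatty acid synthesis were followed in cultured cardiac fibroblasts of WT and PMCA4-/- mice. The set holds 30 genes, taken from the known steps of the pathways by a rule that uses no measured value, though chosen with earlier results of these data known: 7 genes of the mevalonate steps, 11 of the steps from squalene to cholesterol, 5 regulators and sterol transporters, 5 genes of fatty acid synthesis and 2 export pumps. All 30 were among the 20587 genes read from the arrays, and all 30 passed the filter on dim values that 11425 genes passed.

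Cells build cholesterol from acetyl-CoA through mevalonate, isoprenoid units and squalene, and they build fatty acids from the same precursor. Transcription of both pathways is driven by the SREBP factors, which the escort protein SCAP carries out of the endoplasmic reticulum when its membrane is poor in sterol, while INSIG proteins hold the complex back when sterol is plentiful. In fibroblasts the pathways supply membrane lipid, and LXR receptors, which sense oxidized sterols, raise cholesterol export and Srebf1 transcription.

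The fibroblasts came from the hearts of 3-month-old male mice, either WT or PMCA4-/-. The knockout lacks the plasma membrane calcium ATPase 4, a pump that moves calcium out of the cell, through a targeted deletion in its gene. The cells of each genotype had been in culture for 4 days and were either left untreated or given 30 µM phenylephrine, an agonist of α1-adrenergic receptors, for 72 h. RNA pooled from 3 batches of cells was hybridized to Affymetrix GeneChips, and 1 array was analysed for each of the 4 conditions. The methods also speak of 3 RNA pools of each genotype, which does not match 1 array per condition, and the arrays are treated here as 1 pool each. No value therefore has a replicate error, no p-value is given, and a difference between genotypes describes these 4 pools.

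The values are intensities on a linear scale, estimated by the authors with PUMA, a probabilistic model of the probes of an Affymetrix probe set. A gene with several probe sets was represented by the brightest on average, and it was counted if that average was above 35.1, the midpoint of all probe sets. For each genotype the untreated value is given before the phenylephrine value. Differences are given on the log2 scale, untreated pair before phenylephrine pair, and a gene is counted as lower or higher in a pair of arrays when the intensities are at least 1.5-fold apart. An intensity compares a gene with itself across arrays and does not rank genes. In bulk RNA, fewer cells of a type and less RNA per cell cannot be told apart.

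The median PUMA intensity was 34.0 on each array. Of 12 fibroblast markers, 11 were above the array median on all 4 arrays, and Tcf21 was under it on all 4. The markers of other cells were at low level in part: 6 of 7 measured cardiomyocyte markers, 5 of 6 endothelial, 7 of 12 macrophage (Ptprc and Cd68 among them) and 6 of 11 measured adipocyte markers (Adipoq among them) were under the array median on all 4 arrays. The only probe set of Atp2b4, the gene of PMCA4, was dim, at 19.6 and 23.3 in WT and at 31.6 and 37.9 in PMCA4-/-. Where it lies with respect to the deletion is not stated, and it is no check of the genotype.

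Promoters are shown here because the differences between genotypes described next are of mRNA, and SREBP factors act together with nuclear factor Y and Sp1 at genes of this kind. They belong to 3 genes that were lower in PMCA4-/- in each treatment (Hmgcs1, Insig1 and Idi1 of the sterol pathway), to Fasn of fatty acid synthesis, and to Ebp, the sterol enzyme that was higher. Each run holds the 250 bases before the annotated start, 5′ to 3′ on the gene's strand, from RefSeq on GRCm38.p6. Capitals mark TCACNCCAC (a form of the sterol regulatory element), CCAAT (the nuclear factor Y box) and GGGCGG (the GC box), read on either strand.
Hmgcs1 (chr13:119690101-119690350, plus strand): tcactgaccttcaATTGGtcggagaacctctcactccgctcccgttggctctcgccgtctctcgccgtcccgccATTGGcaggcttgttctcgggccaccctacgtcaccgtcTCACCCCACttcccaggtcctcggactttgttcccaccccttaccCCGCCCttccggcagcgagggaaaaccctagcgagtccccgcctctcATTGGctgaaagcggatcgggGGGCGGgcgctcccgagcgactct
Insig1 (chr5:28071162-28071411, plus strand): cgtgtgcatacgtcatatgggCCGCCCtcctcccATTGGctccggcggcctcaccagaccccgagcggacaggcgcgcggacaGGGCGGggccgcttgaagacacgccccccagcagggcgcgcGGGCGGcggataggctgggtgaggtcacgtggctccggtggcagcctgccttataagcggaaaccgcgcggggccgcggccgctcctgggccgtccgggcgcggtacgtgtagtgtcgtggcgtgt
Idi1 (chr13:8885356-8885605, plus strand): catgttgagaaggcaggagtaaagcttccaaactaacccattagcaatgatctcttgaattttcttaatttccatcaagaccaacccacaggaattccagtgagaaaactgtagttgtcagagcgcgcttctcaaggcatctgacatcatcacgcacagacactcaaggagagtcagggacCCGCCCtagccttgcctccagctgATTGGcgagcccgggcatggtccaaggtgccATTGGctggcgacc
Fasn (chr11:120824548-120824797, minus strand): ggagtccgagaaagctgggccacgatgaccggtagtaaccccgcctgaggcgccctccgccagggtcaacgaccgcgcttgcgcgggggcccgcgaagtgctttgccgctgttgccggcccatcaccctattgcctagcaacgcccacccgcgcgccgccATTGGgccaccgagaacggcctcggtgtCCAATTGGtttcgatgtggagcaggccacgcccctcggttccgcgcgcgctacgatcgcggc
Ebp (chrX:8193513-8193762, minus strand): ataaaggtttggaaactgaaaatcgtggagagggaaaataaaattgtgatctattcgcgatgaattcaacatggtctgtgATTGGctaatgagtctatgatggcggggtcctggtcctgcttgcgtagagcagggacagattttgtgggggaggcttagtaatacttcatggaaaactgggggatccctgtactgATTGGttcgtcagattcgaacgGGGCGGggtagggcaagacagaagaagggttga

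The promoter table held windows of 300 bases, 250 before to 50 after the start, for 23 of the 30 genes, with 29 windows in all. TCACNCCAC was found in 1 of the 29 windows, that of Hmgcs1, where it begins 137 bases before the start, and in 1.24% of all 32851 windows. CCAAT was found in 20 of the 29 windows (69.0%) and in 37.4% of all windows. GGGCGG was found in 23 of the 29 windows (79.3%), in 35.7% of all windows and in 63.9% of the windows of counted genes. Among the promoters printed here, Ebp, which was higher in PMCA4-/-, and Idi1, which was lower, each hold CCAAT and GGGCGG, and no letters of these motifs overlap those of a different motif. A match is a run of letters and does not show that a factor binds there.

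Without phenylephrine, 26 of the 30 genes had a lower intensity in PMCA4-/- than in WT, as 51.0% of all counted genes did, and the median log2 difference over the 30 was -0.65 against -0.01 over all counted genes. Of the 30, 17 were at least 1.5-fold lower, where 11.5% of all counted genes were, and 0 were at least 1.5-fold higher, where 10.9% of all counted genes were. With phenylephrine, 25 of the 30 were lower beside 50.7% of all counted genes, the median was -0.68, 18 were at least 1.5-fold lower beside 11.9% of all counted genes, and 1 gene, Ebp, was at least 1.5-fold higher beside 11.6%. At least 2-fold lower were 4 genes without phenylephrine (Idi1, Stard4, Fasn and Scd1) and 5 with it (Mvk, Idi1, Insig1, Stard4 and Scd1), beside 5.16% and 5.32% of all counted genes. None was 2-fold higher in either pair, beside 4.89% and 5.23% of all counted genes.

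**Figure D1:**
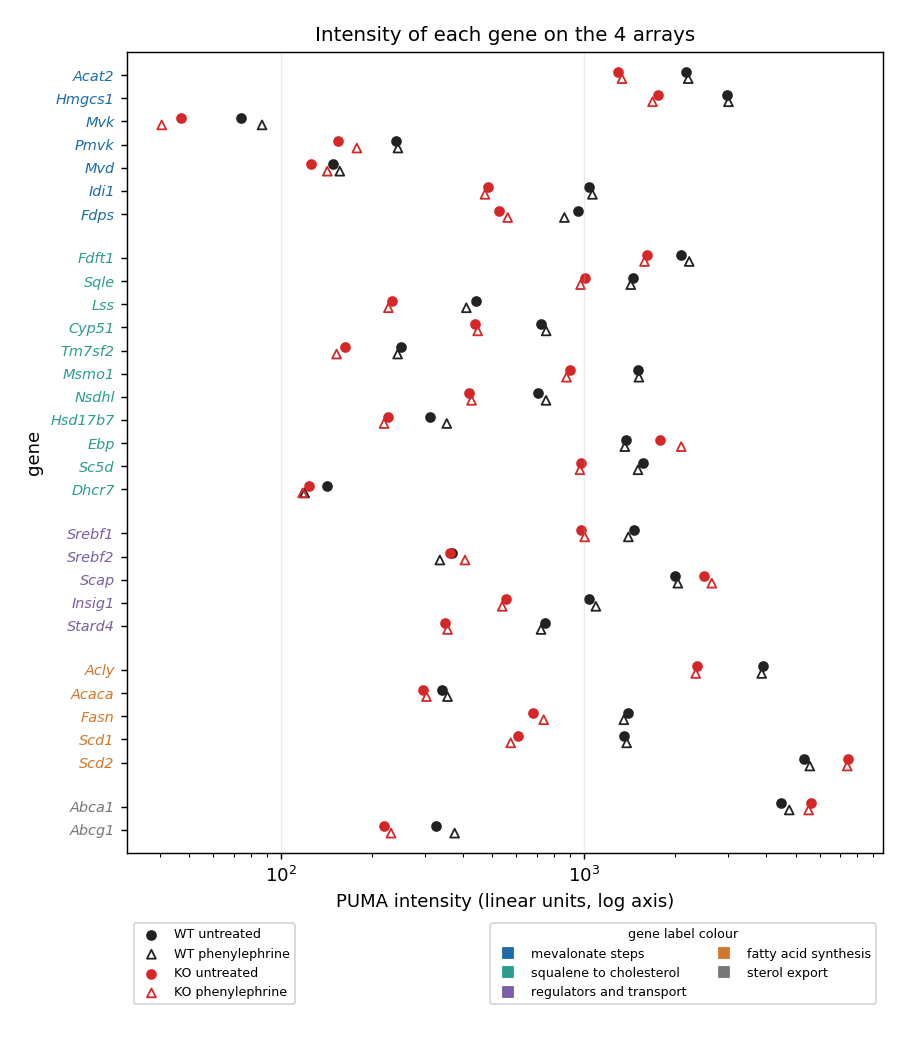
PUMA intensity (linear units on a log axis) of each of the 30 genes on the 4 arrays, with filled symbols for untreated and open symbols for phenylephrine-treated cells and gene labels coloured by pathway branch. In 24 genes both PMCA4-/- symbols lie to the left of both WT symbols, in 4 (Ebp, Scap, Scd2 and Abca1) to the right, and in 2 (Dhcr7 and Srebf2) they overlap.

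In the plot of intensities by array, both PMCA4-/- arrays were below both WT arrays for 24 of the 30 genes, where this held for 41.2% of all counted genes. They were above both WT arrays for 4 genes, where this held for 39.6% of all counted genes. For 27 genes (23 lower and 4 higher) the gap between the genotypes was also larger than the difference between the arrays of each genotype. That gap was present with PMCA4-/- lower for 29.9% of all counted genes and with PMCA4-/- higher for 28.5%. The arrays of one genotype differ by treatment and are no replicates of each other. Most counted genes thus did not overlap between genotypes, in one direction or the other. A lack of overlap named for single genes below therefore sets none of them apart.

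The mevalonate steps turn acetyl-CoA into farnesyl diphosphate. Of their 7 genes, all had lower intensities in PMCA4-/- in each treatment, 6 were at least 1.5-fold lower without phenylephrine and 5 with it, and the median log2 differences were -0.75 and -0.73. Hmgcs1, the enzyme that makes HMG-CoA, had 2977 in untreated and 3004 in phenylephrine-treated WT cells against 1753 and 1687 in PMCA4-/- cells, log2 differences of -0.76 and -0.83. Idi1, which isomerizes the isoprenoid unit, had 1042 and 1068 in WT against 484 and 472 in PMCA4-/- cells, log2 differences of -1.11 and -1.18. Both PMCA4-/- arrays of Hmgcs1 and Idi1 lay well below both WT arrays, and the values of a genotype hardly differed by treatment. Acat2, which joins acetyl-CoA units, had 2170 and 2212 in WT against 1294 and 1338 in PMCA4-/- cells. Fdps, the farnesyl diphosphate synthase, had 958 and 864 in WT against 526 and 561 in PMCA4-/- cells. The groups did not overlap for either gene, with log2 differences of -0.75 and -0.73 for Acat2 and of -0.87 and -0.62 for Fdps.

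The enzymes that phosphorylate and decarboxylate mevalonate were less uniform. Mvk, mevalonate kinase, had 74.2 and 86.8 in WT against 47.1 and 40.5 in PMCA4-/- cells, log2 differences of -0.66 and -1.10. In the Robust Multiarray Average values of the same probe set, the other estimate the authors deposited, the Mvk differences were -0.30 and -0.25, under 1.5-fold. The size of the Mvk difference therefore depends on the estimate. Pmvk, which adds the next phosphate, had 239.7 and 243.8 in WT against 154 and 178 in PMCA4-/- cells, 1.55-fold lower without and 1.37-fold lower with phenylephrine. Mvd, the decarboxylase, had 148 and 157 in WT against 126 and 142.5 in PMCA4-/- cells, 1.17-fold and 1.10-fold lower, and was the only gene of this stretch under 1.5-fold in each pair.

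The steps from squalene to cholesterol close and trim the sterol rings. Of their 11 genes, 10 had lower intensities in PMCA4-/- in each treatment, 6 were at least 1.5-fold lower without phenylephrine and 7 with it, and the median log2 differences were -0.62 and -0.67. Over both stretches of sterol synthesis, 12 of 18 genes were at least 1.5-fold lower without phenylephrine and 12 with it. Pmvk was among them only without and Hsd17b7 only with phenylephrine. The medians were -0.66 and -0.68. Lss, which closes the ring to lanosterol, had 443 and 410.0 in WT against 233 and 227 in PMCA4-/- cells, log2 differences of -0.93 and -0.85. Msmo1, a sterol C4-methyl oxidase that the array annotation calls Sc4mol, had 1509.5 and 1521 in WT against 898 and 877 in PMCA4-/- cells, log2 differences of -0.75 and -0.79. Lss and Msmo1 did not overlap between genotypes, nor did Cyp51, the lanosterol demethylase, Nsdhl, which works with Msmo1 on the C4 methyl groups, Sc5d, the sterol C5 desaturase, or Tm7sf2, a sterol C14 reductase. Cyp51 had 725 and 752 in WT against 437 and 447 in PMCA4-/- cells (log2 -0.73 and -0.75), and Nsdhl had 705 and 751 against 419 and 427 (log2 -0.75 and -0.82). Sc5d had 1564 and 1510.5 in WT against 983 and 972 in PMCA4-/- cells (log2 -0.67 and -0.64), and Tm7sf2 had 249.7 and 243 against 163 and 153 (log2 -0.62 and -0.67). These 6 genes were thus past 1.5-fold lower in each pair.

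The enzymes that make and oxidize squalene were under 1.5-fold. Fdft1, squalene synthase, had 2096 and 2229 in WT against 1619 and 1587 in PMCA4-/- cells, 1.29-fold and 1.40-fold lower. Sqle, squalene epoxidase and a rate-controlling enzyme of the pathway, had 1459 and 1429.8 in WT against 1009.5 and 976 in PMCA4-/- cells, 1.45-fold and 1.46-fold lower. Neither overlapped between genotypes. Hsd17b7, a sterol ketone reductase, had 311 and 353 in WT against 226 and 219 in PMCA4-/- cells, and was 1.38-fold lower without and 1.61-fold lower with phenylephrine.

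Ebp, the isomerase that shifts the sterol ring double bond, differed in sign from the other 17 sterol synthesis genes. Its intensity was 1376 and 1367 in WT against 1786 and 2098 in PMCA4-/- cells, log2 differences of 0.38 and 0.62. Both PMCA4-/- arrays were above both WT arrays, and the phenylephrine-treated PMCA4-/- array was the highest. Dhcr7, a reductase at the end of the pathway, had 142 and 120.0 in WT against 124 and 118 in PMCA4-/- cells, so that its groups overlapped and the log2 differences of -0.19 and -0.02 were within the difference between the WT arrays.

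**Figure D2:**
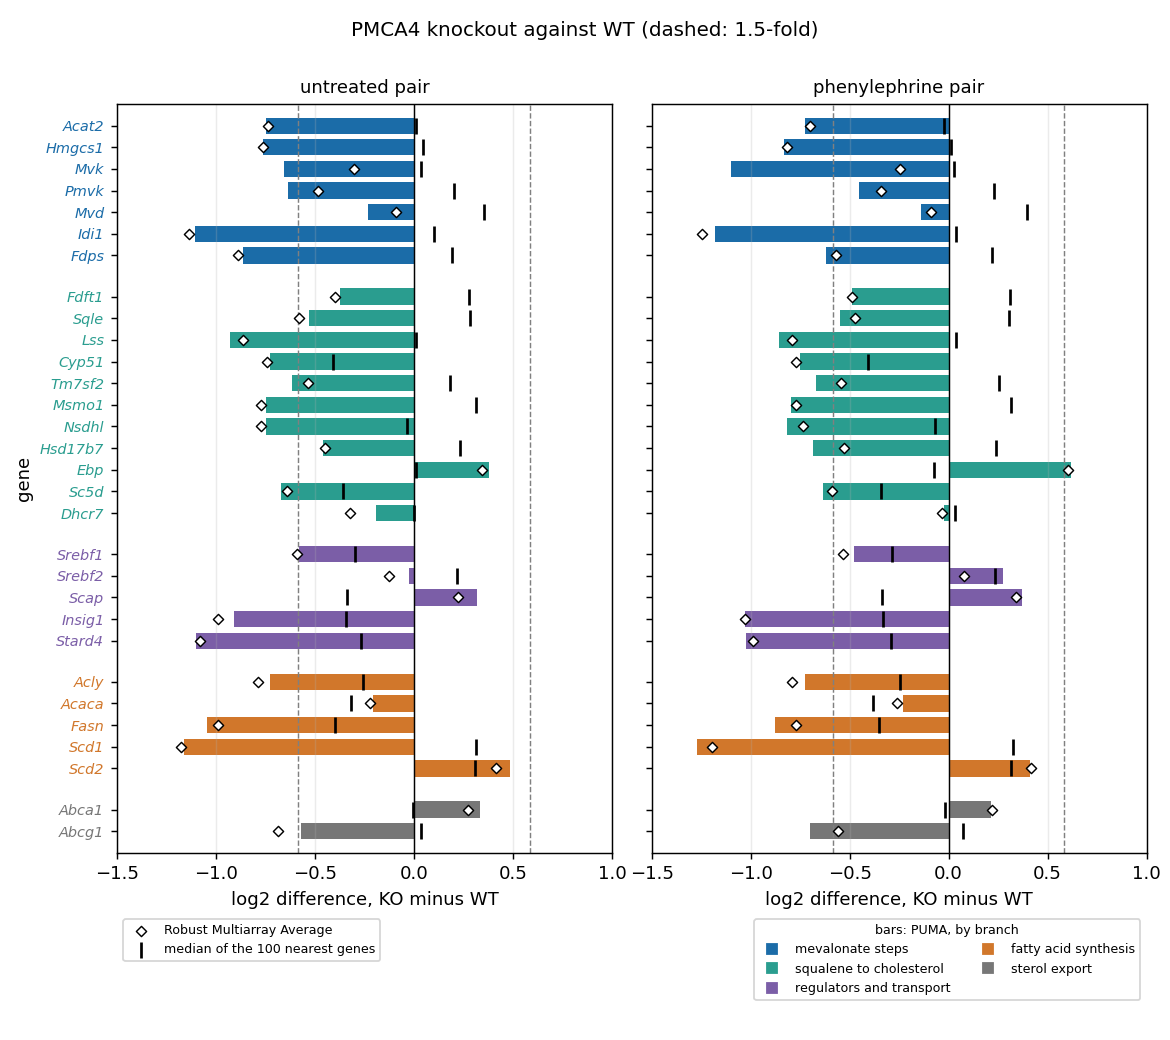
Log2 difference in intensity, PMCA4-/- minus WT, of each of the 30 genes for the untreated pair (left) and the phenylephrine pair (right), with bars for PUMA coloured by branch, diamonds for the Robust Multiarray Average, vertical marks for the median of the 100 counted genes that lie nearest along the chromosome and dashed lines at 1.5-fold. Bars point left for 26 genes without and 25 with phenylephrine, and the diamonds lie on the side of the bars for all 30.

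Of the 5 regulators and transporters, 2 were at least 1.5-fold lower in each pair, with branch medians of -0.58 and -0.48. Insig1, which retains SCAP and is itself an SREBP target, had 1042 and 1097 in WT against 555 and 538 in PMCA4-/- cells, log2 differences of -0.91 and -1.03. Stard4, a soluble protein that carries sterol between membranes, had 747.5 and 723 in WT against 349 and 355 in PMCA4-/- cells, log2 differences of -1.10 and -1.02. Insig1 and Stard4 were the 2 past 1.5-fold, with no overlap between genotypes. Srebf1, the factor tied most to fatty acid synthesis, had 1464 and 1404 in WT against 979 and 1007 in PMCA4-/- cells, 1.49-fold and 1.39-fold lower without overlap. Srebf2, the factor tied most to sterol synthesis, had 368 and 335 in WT against 361 and 406 in PMCA4-/- cells, log2 differences of -0.03 and 0.28. Scap, the escort, had 2005 and 2044 in WT against 2499 and 2647 in PMCA4-/- cells, log2 differences of 0.32 and 0.37. Srebf2 overlapped between genotypes, while both PMCA4-/- values of Scap were the higher ones. The arrays measure mRNA and not the cleaved, active SREBP proteins.

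Of the 5 fatty acid genes, 4 were lower and 1 was higher in PMCA4-/- cells in each pair. Scd1, which desaturates stearate, had 1360.2 and 1386 in WT against 607 and 574 in PMCA4-/- cells, 2.24-fold and 2.41-fold lower. The other Scd1 probe set, dimmer but above the filter, had log2 differences of -0.17 and -0.20, under 1.5-fold. Fasn, fatty acid synthase, had 1404 and 1356 in WT against 681 and 738 in PMCA4-/- cells, 2.06-fold and 1.84-fold lower. Acly, which cuts citrate to acetyl-CoA for both pathways, had 3913 and 3867 in WT against 2363 and 2342 in PMCA4-/- cells, 1.66-fold and 1.65-fold lower. These 3 of 5 genes were past 1.5-fold in each pair, and the branch medians were -0.73 and -0.72. Acaca, acetyl-CoA carboxylase, which makes malonyl-CoA, had 340.0 and 355 in WT against 295 and 303 in PMCA4-/- cells, 1.15-fold and 1.17-fold lower. Scd2, a desaturase of the same family as Scd1, had 5335 and 5572 in WT against 7469 and 7405 in PMCA4-/- cells, log2 differences of 0.49 and 0.41. The paralogs thus differed in sign, with no overlap between genotypes for either.

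The export pumps also differed in sign. Abca1, which loads cholesterol onto apolipoprotein A-I, had 4475 and 4767 in WT against 5637 and 5522 in PMCA4-/- cells, log2 differences of 0.33 and 0.21. Abcg1, which exports cholesterol to HDL, had 326 and 375 in WT against 219.6 and 231 in PMCA4-/- cells, log2 differences of -0.57 and -0.70. Both are LXR targets, and neither overlapped between genotypes.

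The genes at least 1.5-fold lower in each treatment were 16 of the 30, where 9.31% of all counted genes were: Acat2, Hmgcs1, Mvk, Idi1, Fdps, Lss, Cyp51, Tm7sf2, Msmo1, Nsdhl, Sc5d, Insig1, Stard4, Acly, Fasn and Scd1. In 1 treatment only, the genes past 1.5-fold lower were Pmvk without phenylephrine and Hsd17b7 and Abcg1 with it. None of the 30 was at least 1.5-fold higher in each treatment, where 8.83% of all counted genes were. The untreated and the phenylephrine pair use different arrays, and whether their pools share animals is not stated.

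**Figure D3:**
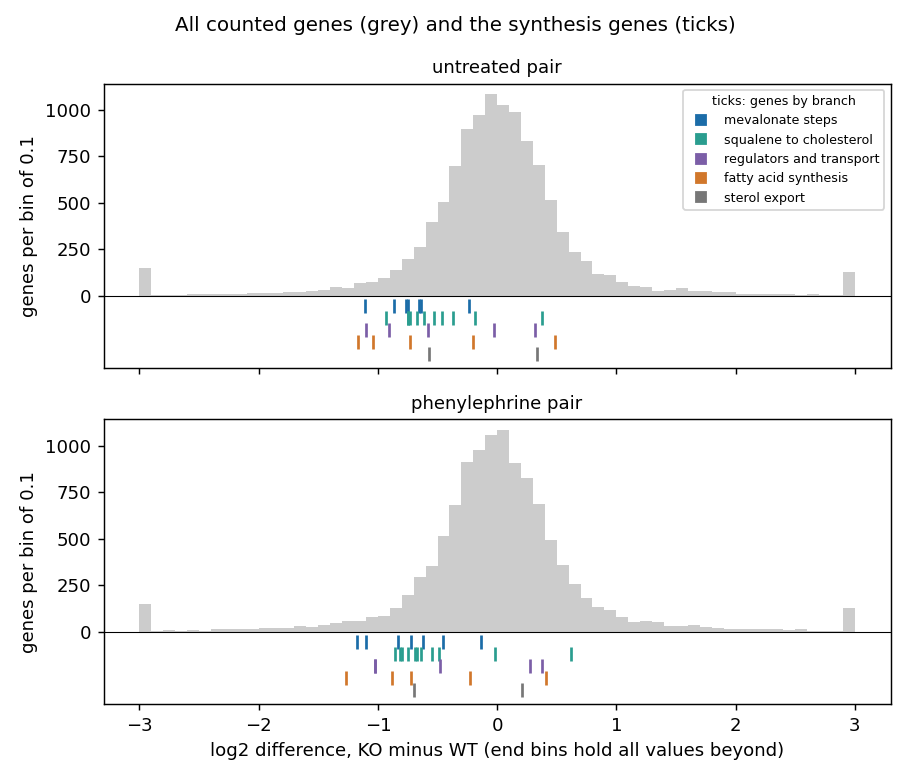
Number of counted genes (grey, bins of 0.1, end bins holding all values beyond) by log2 difference, PMCA4-/- minus WT, for the untreated and the phenylephrine pair, with a tick under the axis for each of the 30 genes, coloured by branch. The ticks crowd below 0, at medians of -0.65 and -0.68, while all counted genes centre at -0.01 in each pair.

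Among probe sets above the filter, those not yet read gave the same signs with 1 exception. Some under the filter had the opposite sign, such as one of Acly (log2 differences of 0.35 and 0.42). The 30 genes had 63 probe sets, 54 of them above the filter, and of the 24 of these not read above, 23 had the sign of the gene in each pair. The exception was a probe set of Srebf2, with log2 differences of 0.03 and -0.04. The sizes varied more than the signs. Another probe set of Cyp51 had -0.38 and -0.35, one of Acly -0.05 and -0.23, and one of Idi1 -1.40 and -1.44. The Robust Multiarray Average gave the same sign as PUMA for 30 of 30 genes in each pair, with medians of -0.62 and -0.55.

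Some of the 30 genes lie among neighbours on the chromosome that also differed between genotypes. The 100 counted genes nearest to Fasn had a median log2 difference of -0.40 without and -0.35 with phenylephrine, and those nearest to Cyp51 had -0.41 in each pair. Around Insig1 the medians were -0.34 and -0.33, and around Acly -0.26 and -0.24. The neighbours of Fasn, Cyp51, Insig1 and Acly were thus lower too. Those nearest to Scd1 and Scd2, which both lie on chromosome 19, were higher instead, with a median of 0.31 around each without phenylephrine. Around Msmo1 the medians were 0.31 and 0.32, opposite in sign to the gene. With each neighbourhood median subtracted, a calculation chosen after seeing the data, 17 of the 30 were at least 1.5-fold lower in each pair, beside 9.19% of the 10909 counted genes with a known position in each. Of the 30, 16 were lower in both pairs, beside 7.46%. Of those 16, 11 were among the 16 without the subtraction. Acly, Cyp51, Fasn, Insig1 and Sc5d left the group, and Abcg1, Fdft1, Hsd17b7, Pmvk and Sqle entered it. After the subtraction 1 gene, Scap, was at least 1.5-fold higher in both pairs, beside 7.98% of those counted genes. The subtracted medians were -0.74 and -0.82 for sterol synthesis, -0.47 and -0.48 for the fatty acid genes, and -0.28 and -0.20 for the regulators and transporters. The part of these stretches in the result was not tested further.

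No gene of the set differed by 1.5-fold between phenylephrine-treated and untreated cells in either genotype. In WT cells 0 of 30 genes differed by 1.5-fold between treated and untreated arrays, where 0.788% of all counted genes were higher and 0.823% lower. In PMCA4-/- cells 0 of 30 did, where 0.867% were higher and 0.858% lower. The log2 differences ran from -0.24 (Dhcr7) to 0.23 (Mvk) in WT and from -0.22 (Mvk) to 0.23 (Ebp) in PMCA4-/- cells. Their medians were 0.03 and -0.01, beside 0.04 and 0.03 over all counted genes, and 12 genes were lower in WT and 16 in PMCA4-/- cells, beside 37.9% and 38.7% of all counted genes. In the Robust Multiarray Average values 21 were lower in WT and 14 in PMCA4-/- cells, beside 50.8% and 43.2% of all counted genes, so the order of the genotypes turned with the estimate. The difference between the 2 responses ran from -0.44 (Mvk) to 0.30 (Srebf2). These ranges cover single arrays, and the interval of a response cannot be given.

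**Figure D4:**
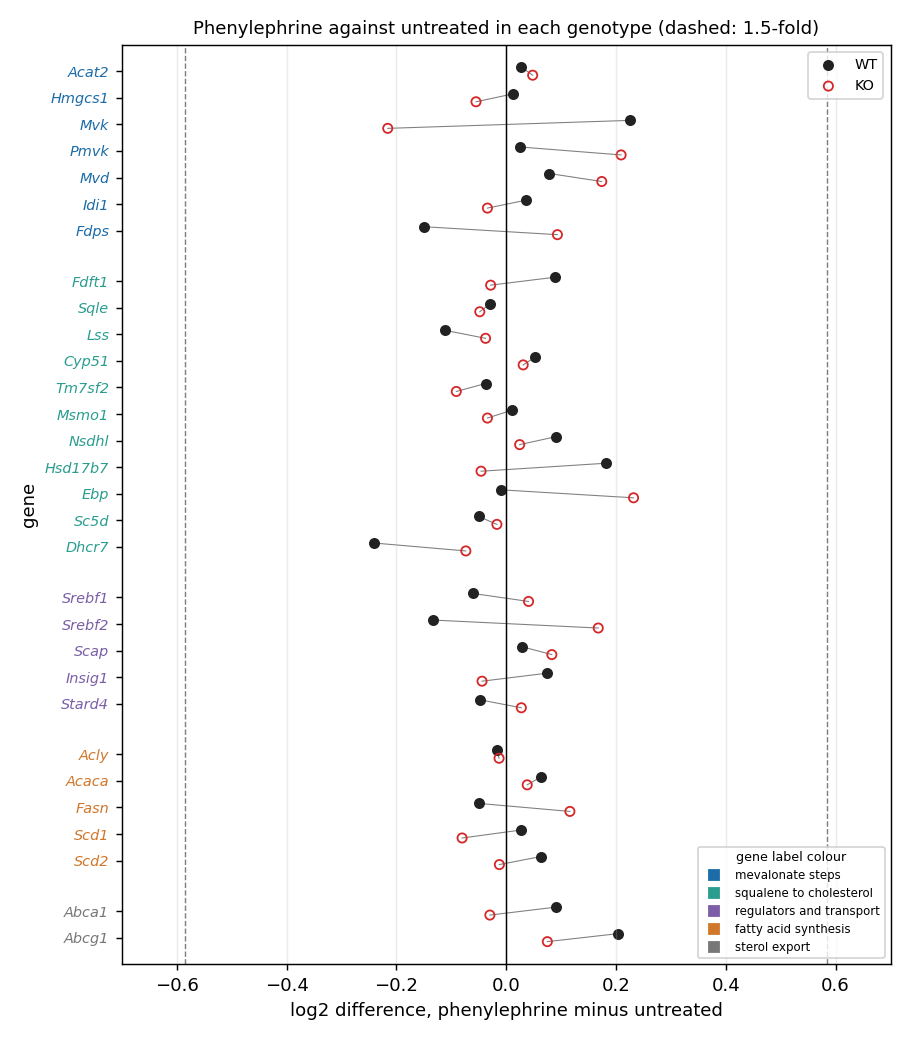
Log2 difference in intensity, phenylephrine minus untreated, of each of the 30 genes in WT (filled) and PMCA4-/- (open) fibroblasts, with dashed lines at 1.5-fold and gene labels coloured by branch. All points lie between -0.24 and 0.23, inside the dashed lines.

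Other genes of sterol handling were read from a list of 22, of which 21 were measured and all 21 counted. Of these, 7 were at least 1.5-fold lower and 1 higher in untreated PMCA4-/- cells, 8 lower and 1 higher with phenylephrine, and the medians were -0.23 and -0.25. Of all counted genes, 11.5% and 11.9% were lower and 10.9% and 11.6% higher in these pairs. Nr1h3, the receptor LXRα, had 127 and 134 in WT against 42.2 and 54.6 in PMCA4-/- cells. Ch25h, which makes 25-hydroxycholesterol, had 806 and 851 against 379 and 353. Mylip, an LXR-induced ubiquitin ligase, had 1447 and 1510.2 against 688 and 650.4. Nr1h3, Ch25h and Mylip were each at least 2-fold lower in each pair. In the Robust Multiarray Average values only Ch25h was. There the log2 differences were -1.01 and -0.82 for Nr1h3 and -0.99 and -1.08 for Mylip. Insig2, picked after its values were seen, had 948 and 1105 in WT against 1540.1 and 1538 in PMCA4-/- cells, log2 differences of 0.70 and 0.48, opposite in sign to Insig1.

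In a list of 25 other genes of fatty acid and glyceride synthesis, 24 were measured and 21 counted. Of the 21, 4 were at least 1.5-fold lower and 2 higher without phenylephrine, 3 lower and 3 higher with it, and the medians were -0.11 and -0.09. These counts lie near the shares over all counted genes, 11.5% lower and 10.9% higher without phenylephrine and 11.9% and 11.6% with it. Elovl7, an elongase of long-chain fatty acids, had 3.16 and 11.5 in WT against 550.3 and 605 in PMCA4-/- cells. With the WT values raised to the array median it was 16.2-fold and 17.8-fold higher. Its log2 differences in the Robust Multiarray Average were 4.23 and 3.59, the second of them less than 17.8-fold. Acsl1, which activates fatty acids with coenzyme A, had 402 and 398 in WT against 1138 and 1178 in PMCA4-/- cells. Elovl7 and Acsl1 were both higher in PMCA4-/- cells without overlap, and the next genes were lower. Hsd17b12, a reductase of the elongation cycle, had 2856 and 3063 in WT against 1386 and 1364 in PMCA4-/- cells. Elovl6, which elongates the palmitate that Fasn makes, had log2 differences of -0.88 and -0.77. Of 11 counted genes of fatty acid oxidation, 1 was lower and 1 higher (Pdk4, a kinase that holds back pyruvate oxidation, 0.74 and 0.76) in each pair, with medians of 0.02 and 0.10.

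Some genes listed here as markers of other cells or of the cell cycle also differed between genotypes. Of 8 counted proliferation genes, 5 were at least 1.5-fold higher in untreated PMCA4-/- cells and 6 with phenylephrine, with medians of 1.03 and 0.96. Of all counted genes, 10.9% and 11.6% were higher and 11.5% and 11.9% lower in these pairs. The summed intensity of the 10 proliferation genes was 3148 and 3326 in WT and 3753 and 3973 in PMCA4-/- cells. The summed intensity of 6 mural markers was 2837 and 2800 in WT and 10426 and 10399 in PMCA4-/- cells, most of it Acta2, smooth muscle actin, at 2549 and 2512 against 10268 and 10209. Rgs5, a pericyte marker of the same list, went the other way, from 185 and 186 in WT to 30.3 and 34.4 in PMCA4-/- cells, so the mural list did not move as a whole. Myh11 and Des of that list were under the array median on all 4 arrays. Which cells held the Acta2 mRNA was not tested. Summed adipocyte markers were 2860 and 3128 in WT and 3573 and 4006 in PMCA4-/- cells, with Fabp4 higher (505 and 626 against 1272 and 1500.4) and Cebpa, an adipocyte transcription factor, lower (644 and 598 against 188 and 213). Of 5 counted adipocyte markers, 1 was lower and 1 higher past 1.5-fold without phenylephrine and 1 lower and 2 higher with it. These few genes went both ways. Summed macrophage markers were 1598 and 1795 in WT against 2274 and 2530 in PMCA4-/- cells. Cd14 (891 and 987 against 1295 and 1431) and Csf1r (153 and 180 against 378 and 492) were higher. Laptm5 was lower (61.8 and 88.3 against 54.1 and 51.4). Of 5 counted macrophage markers, 1 was higher past 1.5-fold in each pair and 1 was lower, with phenylephrine only. The macrophage list did not move as a whole. Summed cardiomyocyte markers, none of which passed the filter, were 68.8 and 65.0 in WT and 43.8 and 43.9 in PMCA4-/- cells. Of these sums, Tnni3 alone made up 37.9 and 40.2 in WT against 9.49 and 13.7. Summed endothelial markers were 284 and 307 in WT against 264 and 272 in PMCA4-/- cells. A higher or lower sum does not mean that each marker of a list differed that way. The fibroblast markers summed to 86673 and 90686 in WT and 96413 and 90400 in PMCA4-/- cells. The part of these cell type and proliferation genes in the lower synthesis genes was not tested.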

How the data were processed

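Total RNA of WT and PMCA4-/- mouse cardiac fibroblasts, untreated or given phenylephrine, was analysed on 4 arrays, 1 per condition. The authors' deposited intensities cover 45037 probe sets and are linear. One file has PUMA estimates, another has Robust Multiarray Average values, and a further table repeats the PUMA values (180148 of 180148 equal within a relative 0.0001). The methods name MOE430A arrays, which does not match the number of probe sets, and MAS5.0, and the submitters' processing notes name MAS5 and RMA. Tool versions and the annotation release were not given in the sources used here. Columns with the authors' comparisons (fold changes and the probability of a positive log ratio) were not used.

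Intensities were log2-transformed with no pseudocount in Python 3.11.15 with numpy 2.4.6 and pandas 2.3.3, and plotted with matplotlib 3.10.9. Probe sets with 1 symbol (37823) were used; 1394 had several and 5820 none. Symbols were updated through RefSeq for GRCm38.p6: 31088 were current, 3521 were matched by accession and 394 by synonym, and 2820 were kept. Differences were taken in 4 pairs of arrays: PMCA4-/- against WT in each treatment, and phenylephrine against untreated in each genotype. With 1 array per condition no test was run, and precision is limited by the number of arrays. Counting was tested on simulated data.

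The genes and lists were chosen with earlier results of these data known. All 30 synthesis genes are accounted for; of each other pathway list, up to 4 counted genes with the largest absolute mean of the genotype differences are named, except for a few not reported here, and of each cell type list the summed intensity and the genes under the array median are given. Alternatives were quantile normalization, the Robust Multiarray Average, centring of each array, the median over probe sets, values raised to the array median, log2(intensity + 16), a filter at the upper quartile, no filter, thresholds of 2-fold and of 0.32 on the log2 scale, and, added after seeing the data, subtraction of the median of the 100 nearest genes.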

Additional observations from a re-analysis of the deposited data

Results flagged for a closer look

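Mvk had a log2 difference of 0.23 between phenylephrine-treated and untreated WT cells and of -0.22 in PMCA4-/- cells, which opposed each other in sign. In the Robust Multiarray Average values of the same probe set these were -0.0029 and 0.055, so neither the size nor the signs held. Srebf2 had a log2 difference between PMCA4-/- and WT of -0.026 without phenylephrine and of 0.28 with it. In all, 16 of the 30 genes had phenylephrine responses of opposite sign in WT and PMCA4-/- cells, each response under 1.5-fold, and 13 did in the Robust Multiarray Average values. None of these differences was tested, since each condition had 1 array.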

How the results depend on the processing

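Of the 11 alternatives, the changed thresholds bear on counts only, and the changed filters on counts and medians only. Under the alternatives that apply, no genotype median and no genotype difference of at least 1.5-fold turned its sign. Of the smaller genotype differences 4 did (Dhcr7 with phenylephrine under quantile normalization, Srebf2 without it under the median over probe sets, and Acaca in each pair with the nearest genes subtracted). Of the phenylephrine responses, all under 1.5-fold, 45 of 420 values of single genes and 11 of 72 medians turned sign, such as the sterol synthesis median in WT, 0.019 as reported and -0.035 in the Robust Multiarray Average. In all, 219 values of counts and medians stayed close to those reported and 13 moved. Part of this was fixed in advance. Without a filter, or with values raised to the array median, these values could not move. All 30 genes pass the filter and lie above the array medians. Adding 16 to each intensity cannot turn the sign of a difference. In phenylephrine-treated cells, genes at least 1.5-fold higher in PMCA4-/- than in WT numbered 2 with the median over probe sets. They also numbered 2 with the median of the 100 nearest genes subtracted. They numbered 0 at a 2-fold threshold and 3 at a log2 threshold of 0.32, which 23.1% of all counted genes passed. Without phenylephrine they numbered 3 at that lower threshold, beside 22.7% of all counted genes, and 1 with the nearest genes subtracted. Genes lower in PMCA4-/- than in WT numbered 4 without and 5 with phenylephrine at a 2-fold threshold. The median of the fatty acid genes with phenylephrine was -0.38 with the median over probe sets. With the nearest genes subtracted it was -0.48, and -0.47 without phenylephrine. The median of the regulators was -0.28 without and -0.20 with phenylephrine under that subtraction. The Robust Multiarray Average put 13 genes at least 1.5-fold lower in each treatment, without Fdps, Mvk and Tm7sf2. The median over probe sets put 14 there, without Acly, Msmo1 and Nsdhl and with Abcg1, and the 2-fold threshold left 3 of the 16. Of the values of single genes, 57 of 840 moved by more than 0.204. That is the SD over counted genes of the log2 phenylephrine response, averaged over the 2 genotypes.

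Leaving out an array was not possible with 1 array per condition, and no replicate error is known. No paired analysis was possible because each condition had 1 array and the labels give no replicate numbers. Treatment and genotype differences hold for these pools only. Dim probe sets, such as that of Mvk, are least certain, and probe sets under an intensity of 1 made up 12.9% to 14.6% of each array.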
